A study of Mus musculus with 12 samples.

Results

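The GIMAP genes (GTPases of immunity-associated proteins) were followed through 12 mouse thymic lymphomas. The members are the rows of the count table whose Ensembl identifier carries the symbol Gimap1, Gimap3, Gimap4, Gimap5, Gimap6, Gimap7, Gimap8 or Gimap9. All 8 were found among the 37991 rows, and all 8 passed the filter on low counts, which left 18612 genes for testing. GIMAP proteins bind guanine nucleotides and sit largely on membranes inside lymphocytes, and their genes lie side by side in the genome. In the thymus several of them are known to be low in cortical thymocytes, which carry both CD4 and CD8, and to rise as the cells mature and leave. Loss of Gimap5 is known to cause a lack of T cells in rats and mice, and Gimap1 is needed for mature T and B cells.

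All 12 tumours came from C57BL/6 mice of the genotype p53neo/R172H;R26CreER/GNZ, so responders and non-responders alike carried the mutant R172H allele, a restorable p53 allele and the tamoxifen-activated Cre recombinase. All tumour-bearing mice received tamoxifen by weekly injection, and none of the 12 is an untreated tumour. After MRI had shown shrinkage or growth, 8 tumours were labelled responder and 4 non-responder, and each was frozen whole for bulk mRNA sequencing, 1 library per tumour. Library totals lay between 20796860 and 30265753 counts. Tumours are numbered within their group in the order of the records. The comparison asks which transcripts differ between tumours that resisted the restoration of p53 and tumours that responded to it. T-cell genes were present in every tumour: Cd3e, a chain of the T-cell receptor complex, ranged from 27.7 to 166 CPM (counts scaled to a common library size), and the kinase gene Lck from 39.8 to 876 CPM, both lowest in responder 4.

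The 8 genes occupy 124 kb of chromosome 6 (48647234 to 48770851, GRCm38, GENCODE M21), in the order Gimap8, Gimap9, Gimap4, Gimap6, Gimap7, Gimap1, Gimap5 and Gimap3. Gimap8 (ENSMUSG00000064262) opens the row at 48647234 to 48660875. Gimap9 (ENSMUSG00000051124) follows at 48676129 to 48679114 and Gimap4 (ENSMUSG00000054435) at 48684549 to 48692060. Gimap6 (ENSMUSG00000047867) lies at 48701582 to 48708225 and Gimap7 (ENSMUSG00000043931) at 48718621 to 48724636. Gimap1 (ENSMUSG00000090019) at 48739054 to 48743795, Gimap5 (ENSMUSG00000043505) at 48746197 to 48754210 and Gimap3 (ENSMUSG00000039264) at 48764464 to 48770851 close it. Gimap6 and Gimap3 are on the minus strand and the other 6 on the plus strand. Reads could be shared between members to a small extent only. Of the distinct 75-base stretches of the Gimap3 transcripts, 3.32% also occur in Gimap5 transcripts, and 1.97% of those of Gimap5 occur in Gimap3, while the other 6 members share none with another member. Gimap1 is different, because the non-coding gene Gimap1os runs through it on the opposite strand and covers 36% of its exon bases. Whether counting used the strand is not stated, so reads in that stretch cannot be assigned to one of the pair.

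The promoters are shown because 7 of the members varied together from tumour to tumour and Gimap9 varied little. Below are the 250 bases before the RefSeq start (GRCm38.p6) of Gimap3 and Gimap4, the members with the widest range across tumours, of Gimap5, and of Gimap9. Each reads 5′ to 3′ on the strand of its gene. Capitals mark matches, on either strand, to short core motifs of factor families active in T cells.
Gimap3: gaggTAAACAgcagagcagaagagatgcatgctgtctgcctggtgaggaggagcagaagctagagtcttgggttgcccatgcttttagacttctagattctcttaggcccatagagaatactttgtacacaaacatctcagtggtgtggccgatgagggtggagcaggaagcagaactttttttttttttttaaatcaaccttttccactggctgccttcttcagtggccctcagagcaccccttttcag
Gimap4: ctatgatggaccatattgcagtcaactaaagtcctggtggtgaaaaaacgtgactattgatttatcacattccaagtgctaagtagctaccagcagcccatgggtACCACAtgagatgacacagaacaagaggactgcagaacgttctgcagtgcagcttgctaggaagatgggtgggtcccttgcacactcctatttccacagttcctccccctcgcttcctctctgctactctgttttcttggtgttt
Gimap5: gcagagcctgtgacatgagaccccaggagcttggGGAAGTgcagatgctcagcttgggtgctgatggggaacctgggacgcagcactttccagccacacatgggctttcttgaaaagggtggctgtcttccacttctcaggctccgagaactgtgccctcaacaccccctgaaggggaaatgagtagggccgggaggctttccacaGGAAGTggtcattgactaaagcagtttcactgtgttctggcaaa
Gimap9: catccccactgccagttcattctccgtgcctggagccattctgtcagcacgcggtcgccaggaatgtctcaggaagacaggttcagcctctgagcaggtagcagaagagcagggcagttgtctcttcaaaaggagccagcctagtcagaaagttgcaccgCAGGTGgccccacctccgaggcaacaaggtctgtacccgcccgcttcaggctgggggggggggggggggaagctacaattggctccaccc

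These windows lie at chr6:48770852-48771101 (minus strand) for Gimap3, chr6:48684328-48684577 for Gimap4, chr6:48745947-48746196 for Gimap5 and chr6:48675885-48676134 for Gimap9. The motifs were GGAAGT (ETS factors), TGTGGT (RUNX), CTTTGA (TCF and LEF), TGTTTA (FOXO) and CAGGTG (E proteins), and none of the 5 overlaps another in the windows shown. Of 32851 RefSeq windows of the same length, 19.7% held the ETS letters, 14% the RUNX, 13.8% the TCF, 12% the FOXO and 17.2% the E-protein letters. Gimap5 had 2 ETS matches and Gimap6 had 1. Gimap4, Gimap7 and Gimap1 had 1 RUNX match each, Gimap3 had 1 FOXO match, Gimap9 had 1 E-protein match, and Gimap8 had none. No motif was found in every member, and the members that varied together shared none across all of them. The Gimap9 window was the richest in G and C, at 61.2% against 43.6% to 55.6% in the first window of the other 7 and a median of 52.4% over all windows.

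By group mean, 7 of the 8 genes were more than 1.5-fold lower in non-responders, Gimap3 and Gimap4 by the largest factors, but no member passed the adjusted threshold in edgeR. Counts were tested with edgeR's quasi-likelihood test, and p-values were adjusted over all genes by Benjamini-Hochberg with a threshold of 0.05. The test called 0 of the 18612 genes (0%) and 0 of the 8 members. All 8 log2 fold changes, taken as non-responder minus responder, were below 0, with a median of -2.10 where the median of all genes was -0.02. Of all 18612 genes, 9589 were below 0. At an unadjusted p under 0.05, 6 of the 8 were lower, against a background of 16.1% of all genes lower in the same way. DESeq2 called 6 of the 8 as lower (background 10.5%) and limma-voom with quality weights called 5 (background 4.71%). The groups overlapped for every member: in none was each non-responder below each responder, which held for 1.18% of all genes.

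**Figure D1:**
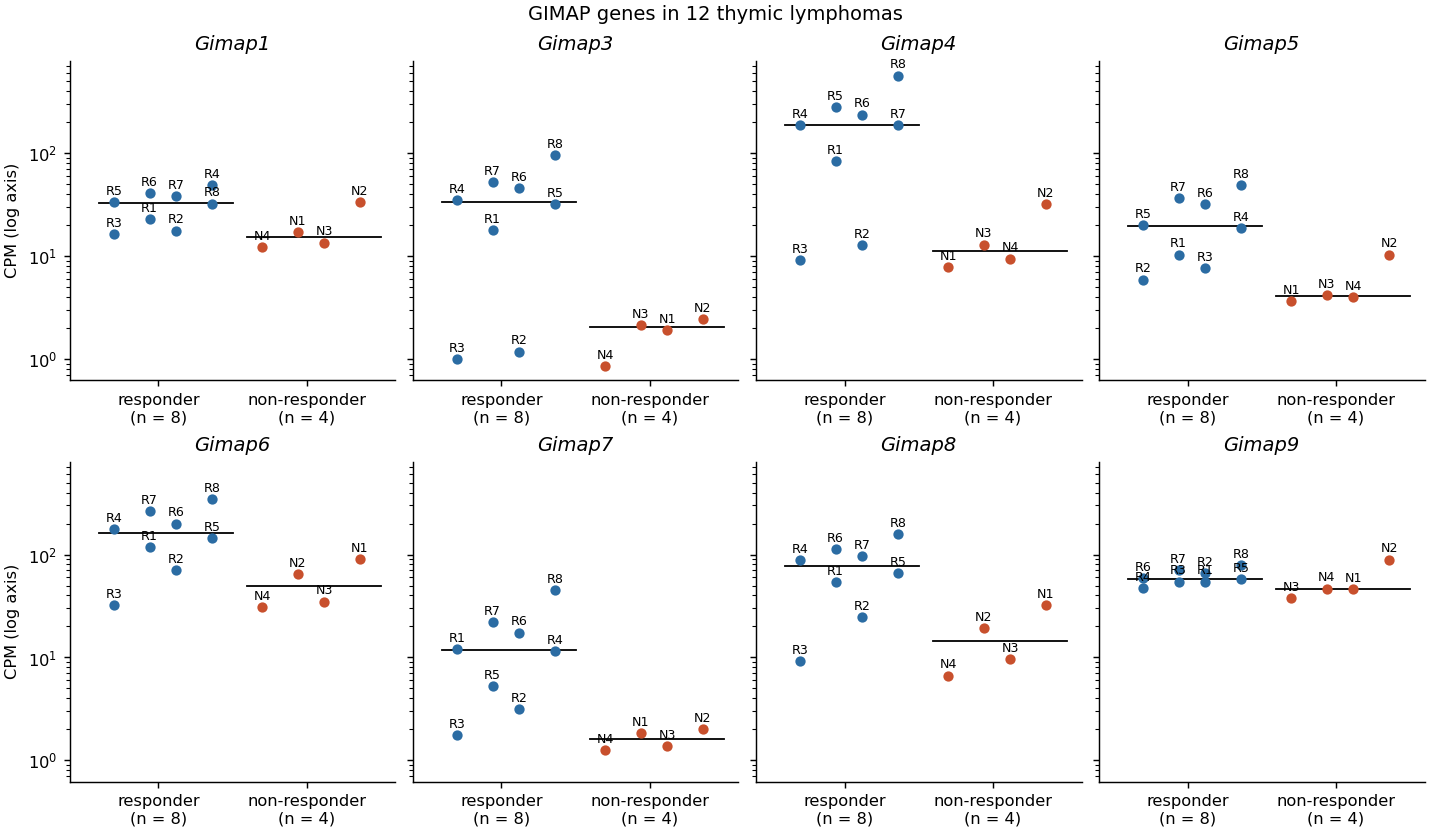
Level of each GIMAP gene in each tumour, in CPM on a log axis, for responders (blue, R1 to R8) and non-responders (red, N1 to N4); the line is the group median. Responders 2 and 3 sit among the non-responders for Gimap3 and Gimap4, and Gimap9 lies between 37.4 and 89.4 CPM in all tumours.

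Gimap3, Gimap4 and Gimap5 are described first. Gimap3 is the mouse gene nearest to Gimap5 and acts in the segregation of mitochondrial DNA in blood cells. In responders it ranged from 1.01 to 97.0 CPM with a median of 33.6 CPM, and the 4 non-responders were at 1.93, 2.45, 2.16 and 0.863 CPM. Responders 2 and 3, at 1.19 and 1.01 CPM, lay within the range of the non-responders, while the other 6 responders were at 17.9 CPM or more. Responders averaged 35.4 ± 31.4 CPM (SD, n = 8) and non-responders 1.85 ± 0.693 CPM (SD, n = 4). The log2 fold change was -4.26 (SE 1.12, 95% interval -6.67 to -1.85), for which edgeR gave an adjusted p of 0.117. No other member spanned such a range, with 112-fold between the highest and the lowest tumour.

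Gimap4, whose product speeds the final steps of T-cell death, was the member with the highest level per kilobase in responders. Its responder levels ran from 9.28 over a median of 189 to 570 CPM, and its non-responder levels were 7.89, 32.0, 13.0 and 9.53 CPM. Responders 2 (12.8 CPM) and 3 (9.28 CPM) again fell among the non-responders, and responder 1, at 83.9 CPM, stood between them and the other 5 responders. The means were 197 ± 181 CPM and 15.6 ± 11.1 CPM (SD, n = 8 and 4). On the log2 scale the difference was -3.66 (SE 1.02, 95% interval -5.87 to -1.44, edgeR adjusted p = 0.117). Gimap5, the survival factor of resting T cells, ran from 5.96 over 19.6 to 49.2 CPM in responders and was at 3.67, 10.4, 4.23 and 3.99 CPM in non-responders. Non-responder 2 therefore reached the level of responder 1, which was also at 10.4 CPM. The log2 difference of Gimap5 was -2.02 (SE 0.60, 95% interval -3.32 to -0.73, edgeR adjusted p = 0.117).

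Gimap6 and Gimap8 were expressed in every tumour and kept close to each other. Gimap6, which binds a protein of the ATG8 family and takes part in autophagy, ran from 32.2 over 161 to 344 CPM in responders and was at 89.8, 64.8, 34.9 and 30.8 CPM in non-responders. Gimap8, the longest family protein, built of repeated GTPase domains, ran from 9.20 over 77.1 to 157 CPM in responders and was at 32.0, 19.4, 9.71 and 6.67 CPM in non-responders. For both, non-responder 1 was the highest of its group and responders 2 and 3 lay within the non-responder range. The log2 fold changes were -1.62 (SE 0.55, edgeR adjusted p = 0.126) for Gimap6 and -2.17 (SE 0.67, edgeR adjusted p = 0.118) for Gimap8. Taken as CPM, without scaling by length, the ratio of Gimap6 to Gimap8 stayed between 1.76 and 3.5 in responders and between 2.81 and 4.61 in non-responders. Gimap6 itself spanned 11.2-fold and Gimap8 23.5-fold across tumours.

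Gimap7, whose product can stimulate the GTPase activity of its relatives, was low in all non-responders, at 1.84, 2.01, 1.38 and 1.27 CPM. In responders it ran from 1.77 over 11.8 to 45.5 CPM. Here a single responder, number 3, fell below the highest non-responder, so that Gimap7 came nearer to a separation of the groups than any other member. Its log2 difference was -3.19 (SE 0.81, 95% interval -4.93 to -1.45, edgeR adjusted p = 0.117), and by unadjusted p it ranked 209 of the 18612 genes.

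Gimap1 and Gimap9 differed least between the groups. Gimap1 ran from 16.5 over 33.0 to 49.4 CPM in responders and was at 17.3, 33.4, 13.6 and 12.3 CPM in non-responders. Non-responder 2 lay above the responder median, and 5 of the 8 responders were at or below it. The log2 difference was -0.72 (SE 0.35, edgeR adjusted p = 0.234, 95% interval -1.48 to 0.04), and these counts carry the limit set by Gimap1os. Gimap9, about whose function less is known, ran from 47.2 over 58.2 to 78.8 CPM in responders and was at 45.9, 89.4, 37.4 and 46.6 CPM in non-responders. The highest of all tumours was a non-responder, number 2, and all 8 responders lay below it. Its means were 61.0 ± 10.2 CPM and 54.8 ± 23.4 CPM (SD, n = 8 and 4), and the log2 difference was -0.15 (SE 0.22, edgeR adjusted p = 0.699). The 95% interval of that difference, -0.64 to 0.33 spans 0, and without non-responder 3 the value was 0.01. Leaving out non-responder 2 moved Gimap1 to -1.11.

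**Figure D2:**
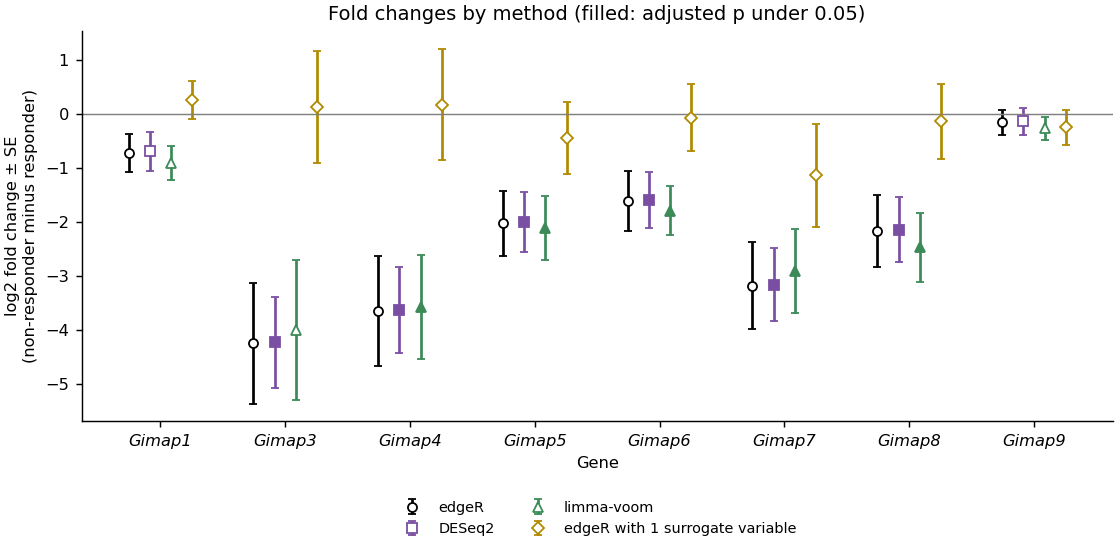
Log2 fold change of each member, non-responder minus responder, with its standard error, by edgeR, DESeq2, limma-voom and edgeR with 1 surrogate variable; filled symbols passed the adjusted threshold of 0.05. The first 3 methods put all 8 genes below 0, from -0.15 for Gimap9 to -4.26 for Gimap3 in edgeR, whereas the surrogate variable put Gimap1, Gimap3 and Gimap4 just above 0.

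An alternative model changed the direction of some members. When 1 surrogate variable estimated from these same counts was added, the median of the 8 log2 differences was -0.10. Gimap1 (0.25, SE 0.35), Gimap3 (0.13, SE 1.04) and Gimap4 (0.18, SE 1.03) turned sign, Gimap7 stood at -1.14, and the adjusted p of the members ran from 0.887 to 0.996 in edgeR.

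Levels between genes were compared per kilobase of exon. Gimap4 led in responders, with a median of 103 CPM per kb, followed by Gimap6 at 46, Gimap9 at 35.5 and Gimap8 at 20.8 CPM per kb. Gimap3 (13 CPM per kb), Gimap1 (10.7), Gimap7 (5.08) and Gimap5 (4.72) followed, and the ranges of each neighbouring pair in this order overlapped. In non-responders the order was another: Gimap9 came first at 28.2 CPM per kb, ahead of Gimap6 at 14.3, Gimap4 at 6.13 and Gimap1 at 5.03 CPM per kb. Gimap9 alone gave 37.4% to 56.7% of the summed family level per kb in the 4 non-responders. In responders 2 and 3 its share was 48.3% and 57%, in responder 1 it was 22.3%, and in responders 4 to 8 it lay between 8.29% and 14.5%. In those last 5 tumours Gimap4 supplied the largest share, 34.2% to 55.1%, and it did so in responder 1 too, at 30.6%.

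For most members the tumours kept nearly the same order. Over the 12 tumours Pearson's r of log2 CPM ran from 0.751 to 0.989 between pairs of the 7 members other than Gimap9, and from 0.321 to 0.575 between Gimap9 and the others. These values are a description, since each pair shares its libraries and the tumours fall into high and low ones. Responders 4 to 8 were the 5 highest tumours for Gimap3, Gimap4, Gimap5, Gimap6 and Gimap8. Responder 8 was the highest of all for those 5 genes and for Gimap7. Non-responder 4 was the lowest tumour for Gimap1, Gimap3, Gimap6, Gimap7 and Gimap8. Gimap9 kept another order, with non-responder 2 first, responder 8 second and responder 4 only in place 9. The summed level of the 8 genes was 112 to 254 CPM in non-responders and 132 to 1370 CPM in responders.

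**Figure D3:**
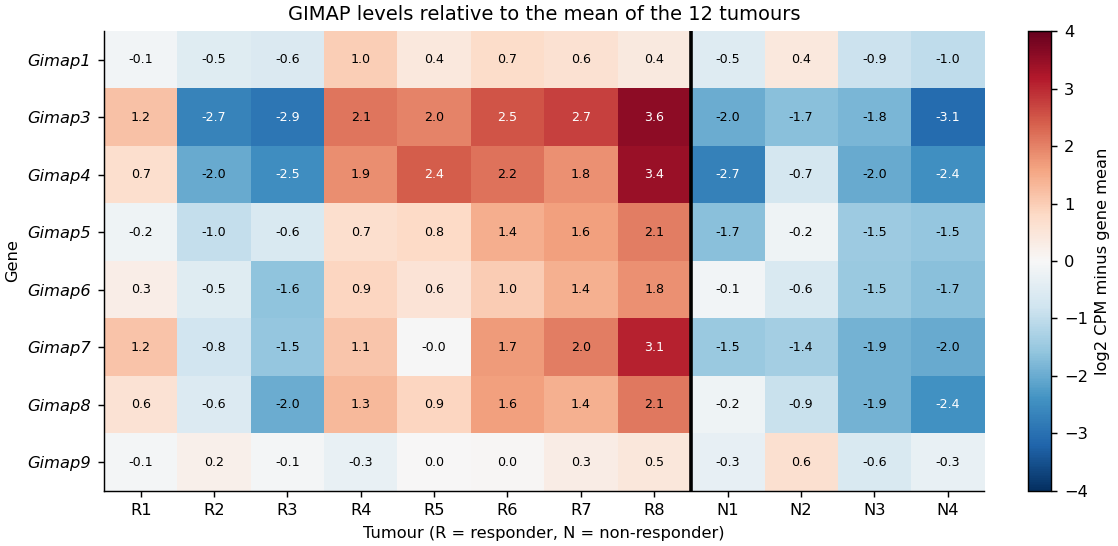
Log2 CPM (prior count 2) of each GIMAP gene in each tumour after subtracting the mean of that gene over the 12 tumours, with responders (R1 to R8) left and non-responders (N1 to N4) right of the line. Responders 4 to 8 are above the mean for nearly all genes, responders 2 and 3 resemble the non-responders, and the Gimap9 row stays within 1 unit of its mean.

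The genes next to the cluster differed less than most members. On the Gimap8 side lie AI854703 (log2 fold change -0.54, SE 0.68) and the zinc finger gene Zfp775 (0.11, SE 0.29), and Gm44965, the remaining protein-coding gene of that side, was not analysed here. On the Gimap3 side lie the membrane channel genes Tmem176b (-1.10, SE 0.49) and Tmem176a (-0.83, SE 0.45) and the diamine oxidase gene Aoc1 (-1.30, SE 0.74). None of these 5 passed in edgeR, where the lowest adjusted p among them was 0.2 for Tmem176b. Gimap1os, the antisense gene, was at 1.27 to 7.07 CPM in non-responders and 2.11 to 19.0 CPM in responders (-1.29, SE 0.60, edgeR adjusted p = 0.216). Within the cluster, position did not order the fold changes: Gimap9, with the smallest difference, lies between Gimap8 (-2.17) and Gimap4 (-3.66).

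**Figure D4:**
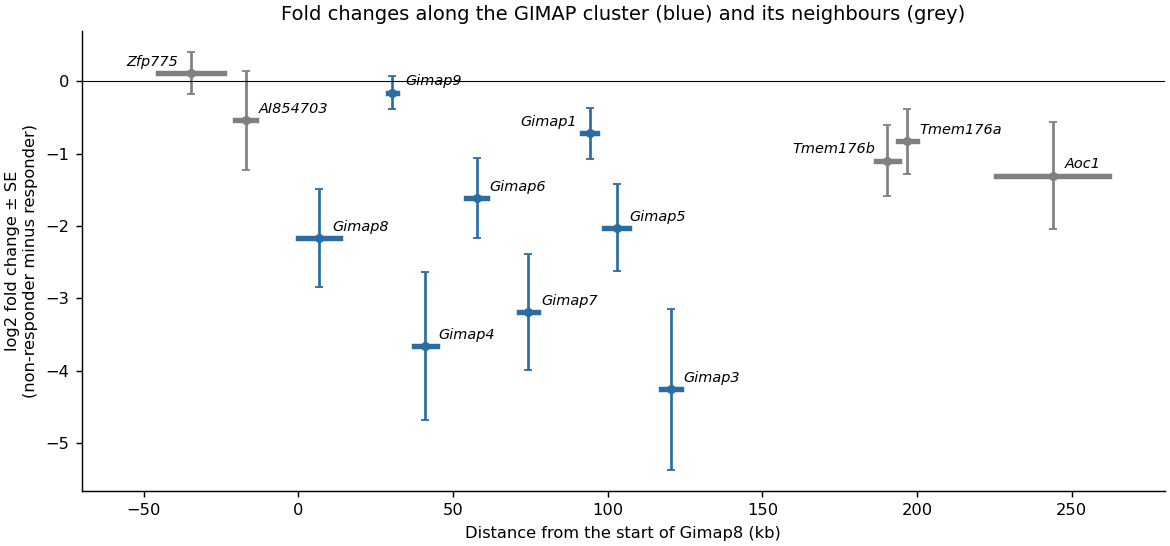
Log2 fold change (non-responder minus responder) with its standard error for the 8 GIMAP genes (blue) and 5 neighbouring genes (grey), placed by distance from the start of Gimap8 in kb; the thick bar is the extent of the gene. Gimap9 at -0.15 stands beside Gimap4 at -3.66.

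The tumours with high GIMAP levels were also those with little Rag1. This cortical marker, whose product cuts DNA for receptor rearrangement, was at 168 to 1760 CPM in the non-responders and at 895, 1200 and 1260 CPM in responders 1 to 3. In responders 4 to 8 it was at 0.456, 2.91, 0.51, 0.41 and 0.714 CPM. Those 5 tumours are the ones with the 5 highest Gimap3, Gimap4 and Gimap5 levels. Among the non-responders, number 2 had the lowest Rag1 level (168 CPM, the others at 1260 CPM or more) and the highest level of every member except Gimap6 and Gimap8. Responder 1 joined a Rag1 level of 895 CPM to 83.9 CPM of Gimap4. In such bulk samples fewer cells of a type and less RNA per cell cannot be told apart.

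Genes of late thymocyte maturation and egress were mostly lower in non-responders, as the GIMAP genes were. Of 25 such genes, 22 had a log2 fold change below 0, with a median of -1.16, where 9589 of all 18612 genes were below 0. In edgeR 0 of them passed, and at an unadjusted p under 0.05 there were 16 lower and 0 higher, where 16.1% of all genes were lower and 7.73% higher. DESeq2 called 11 of the 25 as lower (background 10.5%). In limma-voom 6 were called as lower (background 4.71%) and 1, Lef1, as higher (background 4.55%). Il7r, the receptor of the survival cytokine interleukin 7, averaged 242 CPM in the responders, with 142 to 845 CPM in numbers 4 to 8 and 28.5 to 48.3 CPM in numbers 1 to 3. Non-responders averaged 20.2 CPM, and the log2 difference of Il7r was -3.58 (SE 0.98, edgeR adjusted p = 0.117). The surface antigen gene Ly6c2 was at means of 55.7 and 3.62 CPM (-3.95, SE 1.05) and S1pr1, which guides cells out of the thymus, at 38.6 and 9.67 CPM (-2.00, SE 0.64). Klf2, a transcription factor gene of egress, was at 14.6 and 6.91 CPM (-1.07, SE 0.58, edgeR adjusted p = 0.276).

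The list of cortical genes leaned the other way. Of its 16 members 15 were higher in non-responders by sign, with a median log2 fold change of 1.10. Of all 18612 genes, 9589 were lower by sign. At an unadjusted edgeR p under 0.05, 0 of the 16 were higher (background 7.73%), and 0 passed the adjusted threshold in edgeR. DESeq2 called 0 of them. Over all 18525 genes with an adjusted p it called 2462, of which 1940 were lower. Limma-voom called 5 of the 16 as higher (background 4.55%). The spread inside the responders was wide: Rag1 had means of 421 and 1172 CPM and a log2 fold change of 1.48 with an SE of 1.82. The 12 general T-cell genes had a median of 0.57, and their summed level was 1070 to 3260 CPM in responders and 2930 to 3810 CPM in non-responders. The summed level of these T-cell genes was therefore no lower in non-responders, and 11 of the 12 were higher there by sign.

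The reported partners of GIMAP proteins differed little. Among 12 genes of the BCL2 and ATG8 families and Gsk3b, 8 were lower and 4 higher by sign, with a median log2 fold change of -0.12. Of all 18612 genes, 9589 were lower by sign. Bcl2, the anti-apoptotic gene whose product has been found with GIMAP proteins, had means of 32.7 and 14.6 CPM (-1.16, SE 0.49, edgeR adjusted p = 0.18). It was the only one of the 12 with an unadjusted edgeR p under 0.05, where 16.1% of all genes were lower, and it is also on the maturation list. None passed in edgeR or DESeq2. Gabarapl2, the ATG8-family gene of the Gimap6 partner, was at 33.8 and 40.7 CPM (0.27, SE 0.15). The kinase gene Gsk3b, at 86.3 and 123 CPM (0.52, SE 0.27), was the one gene limma-voom called, as higher (background 4.55%).

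**Figure D5:**
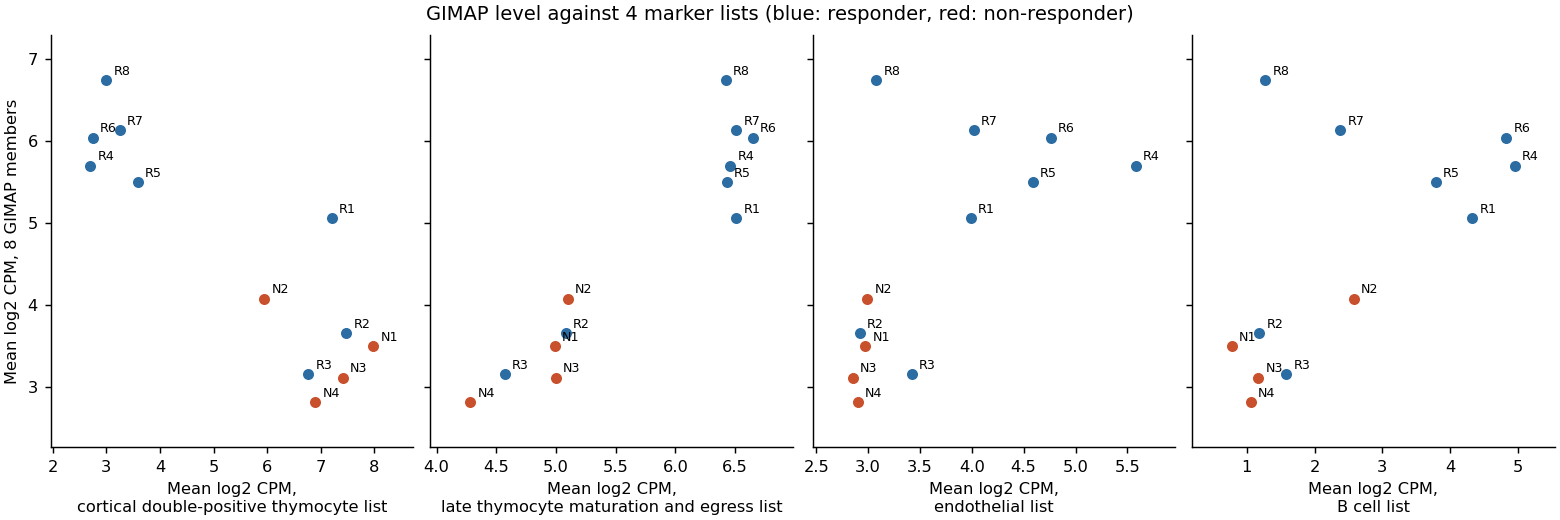
Mean log2 CPM of the 8 GIMAP genes in each tumour against the mean log2 CPM of the cortical, maturation, endothelial and B-cell lists; blue points are responders and red points non-responders. Responder 8 has the highest GIMAP mean, 6.74, with endothelial and B-cell means of 3.08 and 1.27, close to the non-responders. Responders 4 to 7, in that order, have endothelial means of 5.58, 4.59, 4.76 and 4.02. Their B-cell means are 4.96, 3.79, 4.83 and 2.38.

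Other cells in a tumour piece also express GIMAP genes, among them endothelial, B and NK cells. None of the markers of other cell types passed in edgeR, which called 0 of all genes. Most had log2 fold changes below 0, as the GIMAP genes had, where 9589 of all 18612 genes were below 0. DESeq2 called as lower 8 of 12 endothelial, 7 of 10 B-cell and 6 of 8 tested NK and cytotoxic genes (background 10.5%). It also called 1 of 10 macrophage and 7 of 9 tested neutrophil genes. At an unadjusted edgeR p under 0.05, in the same order, 9, 8, 6, 2 and 9 were lower (background 16.1%). Limma-voom called 1, 0, 2, 1 and 0 as lower (background 4.71%). All 12 endothelial genes were lower in non-responders by sign (median -1.55), with a summed level of 186 to 798 CPM in responders and 134 to 191 CPM in non-responders. All 10 B-cell genes were lower by sign too (median -2.30), with sums of 33.7 to 534 and 25.6 to 89.8 CPM. Of the NK and cytotoxic genes 8 of 10 were tested (median -3.88), and 6 of them were lower by sign. These were Klrk1 (-3.66), Nkg7 (-4.41), Klrb1c (-3.81), Klrd1 (-4.89), Gzmb (-6.59) and Eomes (-3.95). Prf1 (0.83) and Gzma (0.29), which encode perforin and a granzyme, were higher. The NK and cytotoxic sums were 31.2 to 451 and 99.1 to 166 CPM, and the NK-cell receptor gene Ncr1 was listed at no more than 1.32 CPM in any tumour. Macrophage genes, 8 of 10 lower by sign (median -0.27), had sums of 728 to 3010 and 974 to 3010 CPM. All 9 tested neutrophil genes were lower by sign and at an unadjusted edgeR p under 0.05 (background 16.1%). Their median was -4.96 (-4.47 with Elane, listed at 0 in every non-responder, set to a floor of 3 counts per library). Their sums were 25.3 to 687 and 7.85 to 25.1 CPM. The NK, neutrophil and B-cell medians lay further below 0 than the GIMAP median of -2.10. No marker on these lists was at 0 in all 12 tumours. Responder 8, the tumour with the most GIMAP RNA, had a B-cell sum of 36.6 CPM and an endothelial sum of 198 CPM, near the values of non-responders. Its NK and cytotoxic sum, at 252 CPM, was above the 99.1 to 166 CPM of the non-responders, and its neutrophil sum was 25.3 CPM. Responders 4 to 7, in that order, had endothelial sums of 798, 471, 485 and 256 CPM. Their B-cell sums were 534, 194, 343 and 67 CPM. With the endothelial score as a covariate Gimap3 was at -4.20 (SE 1.25) and Gimap4 at -3.59 (SE 1.15), and with the B-cell score at -4.25 (SE 1.20) and -3.55 (SE 1.08). Gimap1 shrank from -0.72 to -0.15 and -0.31 in these 2 fits, and none of the members passed in either. The edgeR adjusted p of the members ran from 0.666 to 0.95 and from 0.447 to 0.818. Both scores came from the same bulk counts, so these fits cannot assign GIMAP RNA to a cell type. The part of the endothelial, B-cell, NK, macrophage and neutrophil cells in the GIMAP differences was not tested.

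Likeness to the mean GIMAP profile over the 12 tumours was ranked among tested genes with a symbol, leaving out the members and Gimap1os. The closest genes were Fam102a (Pearson r = 0.971, Spearman rho = 0.923), Cd52 (0.965 and 0.902), Slc25a38 (0.965 and 0.923), Calcrl (0.963 and 0.909) and Ltb (0.963 and 0.874). They serve for ranking only, because the points share libraries and divide into high and low tumours. Cd52, a small surface glycoprotein of mature lymphocytes, was also the gene nearest to Gimap3 (r = 0.987). It was at 15.7 and 19.1 CPM in responders 3 and 2, at 18.2 to 42.5 CPM in non-responders and at 146 to 731 CPM in the other 6 responders. Calcrl, a peptide-hormone receptor gene known from endothelium, was nearest to Gimap4 (r = 0.978), with means of 55.7 and 14.5 CPM. Its highest level, 105 CPM, was in responder 8, where the endothelial sum was 198 CPM. In responder 4, which had the highest endothelial sum (798 CPM), Calcrl was at 69.1 CPM. The lymphotoxin gene Ltb had means of 118 and 15.1 CPM (log2 fold change -2.97, SE 0.85, edgeR adjusted p = 0.117). For Gimap9 the best match reached r = 0.862 only, with Gm24083, a gene below 1.3 CPM in all tumours.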

How the data were processed

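The raw counts per Ensembl gene were deposited by the authors as 1 table, 1 column per tumour, counted with HTSeq per the submitters' processing notes. These notes name NCBIM37 and the labels' extract protocol names mm10, so the build is not settled. Neither the aligner nor the strand setting is given in the sources used here. Symbols were matched by identifier (32919 of 37991 rows), and coordinates and exon lengths came from GENCODE M21. Promoter windows are RefSeq sequences of GRCm38.p6, matched by symbol for 8 of 8 members. A table of GIMAP proteins was not used here.

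Counts were filtered with filterByExpr and scaled by TMM, and CPM were taken on the scaled library. They were tested with edgeR 4.0.16 (R 4.3.3, quasi-likelihood, robust) across all 18612 genes with the group as the sole term, and the Benjamini-Hochberg threshold was 0.05. Tests on both sides were used, SEs came from the F statistic, and log2 CPM had a prior count of 2. Tried besides were scaling by RLE or upper quartile, other filters, no robust step, limma-voom (limma 3.58.1), DESeq2 1.42.0, 1 surrogate variable (sva 3.50.0), endothelial or B-cell score as covariate, thinned libraries and each tumour left out. Tables were joined with Python 3.11.15 and pandas 2.3.3.

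The members and lists were chosen with earlier results of these data known, and the lists are described by counts and medians without a test. Named genes are the members, other Gimap rows, 3 protein-coding neighbours on each side, the leading and the lowest-p genes of each list, and the genes most like the members; part of them are printed. No pair of libraries was a repeat (chi-square per degree of freedom at least 59.6). The tumours are called independent biological samples in the series' design, and no batch or pairing is given. The procedure was tested on simulated data.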

Additional observations from a re-analysis of the deposited data

Results flagged for a closer look

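Gimap5 in non-responder 2 stood apart from the other non-responders. At 10.4 CPM against 3.67 to 4.23 CPM, its gap to the next tumour was 0.864 of the range of the group in log2 CPM, above Dixon's 95% critical value. This was 1 of 16 combinations of gene and group, of which chance marks about 1 in 20. The same tumour had 168 CPM of Rag1 where the other non-responders had 1260 to 1760 CPM.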

How the results depend on the processing

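No paired analysis was possible because the labels give no pairing of tumours. All 8 members kept their sign and stayed uncalled under RLE and upper-quartile scaling, both filters, no robust step, thinning and both marker scores as covariates. Over all genes, limma-voom called 1723 and DESeq2 2462, where edgeR called 0; among the members they called 5 and 6. In limma-voom the members called were Gimap4 (-3.58), Gimap5 (-2.11), Gimap6 (-1.79), Gimap7 (-2.91) and Gimap8 (-2.47), with adjusted p from 0.0408 to 0.0465. In DESeq2 they were Gimap3 (-4.23), Gimap4 (-3.63), Gimap5 (-2.00), Gimap6 (-1.59), Gimap7 (-3.17) and Gimap8 (-2.14), with adjusted p from 0.000293 to 0.0245. With 1 surrogate variable the median was -0.101 instead of -2.10, and Gimap1 (0.254), Gimap3 (0.126) and Gimap4 (0.175) reversed; the cause was not tested. With 1 tumour left out, the calls over all genes ran from 0 to 5 (5 without responder 3, 3 without non-responder 1, 1 without non-responder 3), those among members stayed at 0, and the median ran from -2.354 to -1.848. Leaving tumours out moved Gimap1 from -1.111 to -0.552, Gimap3 from -4.444 to -3.848 and Gimap9 from -0.477 to 0.011, the last a reversal without non-responder 3. The lowest adjusted p of a member in these fits was 0.0514, for Gimap3 and Gimap7. Depth limits Gimap3 and Gimap7 most, at 19 to 50 and 28 to 41 counts in the non-responders.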

Other observations

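Responder 1 combined features that were apart in the other tumours. Its mean log2 CPM over the cortical list was 7.21, within the 5.95 to 7.98 of the non-responders, while its mean over the maturation list was 6.51, within the 6.42 to 6.65 of responders 4 to 8. Its Gimap3, at 17.9 CPM, and Gimap4, at 83.9 CPM, lay between those 5 responders and the tumours with low levels. Its Gimap7, at 12.0 CPM, was instead above responders 4 (11.6 CPM) and 5 (5.28 CPM). Il7r, a gene of the maturation list, was at 37.3 CPM in responder 1 and at 142 to 845 CPM in responders 4 to 8. Its NK and cytotoxic sum of 451 CPM and its mean log2 CPM of 3.93 over that list were the highest of the 12 tumours, as was its macrophage mean of 7.19. Its B-cell sum was 245 CPM, below the 534 CPM of responder 4 and the 343 CPM of responder 6, and its neutrophil sum was 244 CPM against at most 25.1 CPM in non-responders. The part of these markers in its GIMAP levels was not tested.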
